A study of Mus musculus with 6 samples.

Results

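The carbonic anhydrases described here are 6 genes, Car1, Car2, Car3, Car4, Car8 and Car14, measured in the soleus, a postural calf muscle, of mice whose hind limbs were loaded or unloaded. They are 6 of 19938 genes with a signal of their own, and were chosen by symbol from a list drawn up with earlier results of these data known, in which the rise of Car1 in unloaded muscle had already been seen. The series held 6 arrays in 3 groups of 2: control soleus, soleus after hindlimb suspension, which takes the weight off the hind limbs, and soleus after hindlimb suspension with electroacupuncture, in which current is passed through needles. All mice were labelled male C57BL/6 of 8 weeks. The labels give neither the length of suspension, the needle points and current, nor whether a sham treatment was used. Nor do they state that duplicate arrays were separate animals, so p-values measure only the spread between arrays, which may be technical.

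Carbonic anhydrases are zinc enzymes that interconvert carbon dioxide and water with bicarbonate and a proton. In muscle they speed the removal of carbon dioxide and the buffering and shuttling of the acid that contraction and glycolysis produce. The family divides by place: cytosolic enzymes, mitochondrial ones, enzymes tethered to the outer face of membranes, and related proteins that have lost the catalytic zinc site. Car3 is a classic protein of slow fibres, and its level is among the traits by which slow and fast muscle are told apart.

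Each gene had 1 transcript cluster, the array's unit of measurement, so no choice between clusters arose for any of the 6. Values are RMA signals on the log2 scale, on which 1 unit is a doubling. Signals of different genes come from different probes and were not set against each other. As a measure of background, the 95th percentile of the mean signals of 1027 olfactory receptor genes was used, which was 3.50. All 6 genes had a mean over the arrays above it, as did 68.8% of all genes. Each of the 6 was above it on every array, except Car1 on control array 1. The tissue label was checked on 10 slow-fibre and 11 fast-fibre markers, all of which had means above background, among them the slow myosin Myh7 at 11.77. Of 7 measured erythroid markers 5 were above background, of 9 adipocyte markers 8, and all of 11 endothelial, 9 macrophage and 9 fibroblast and tendon markers.

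**Figure D1:**
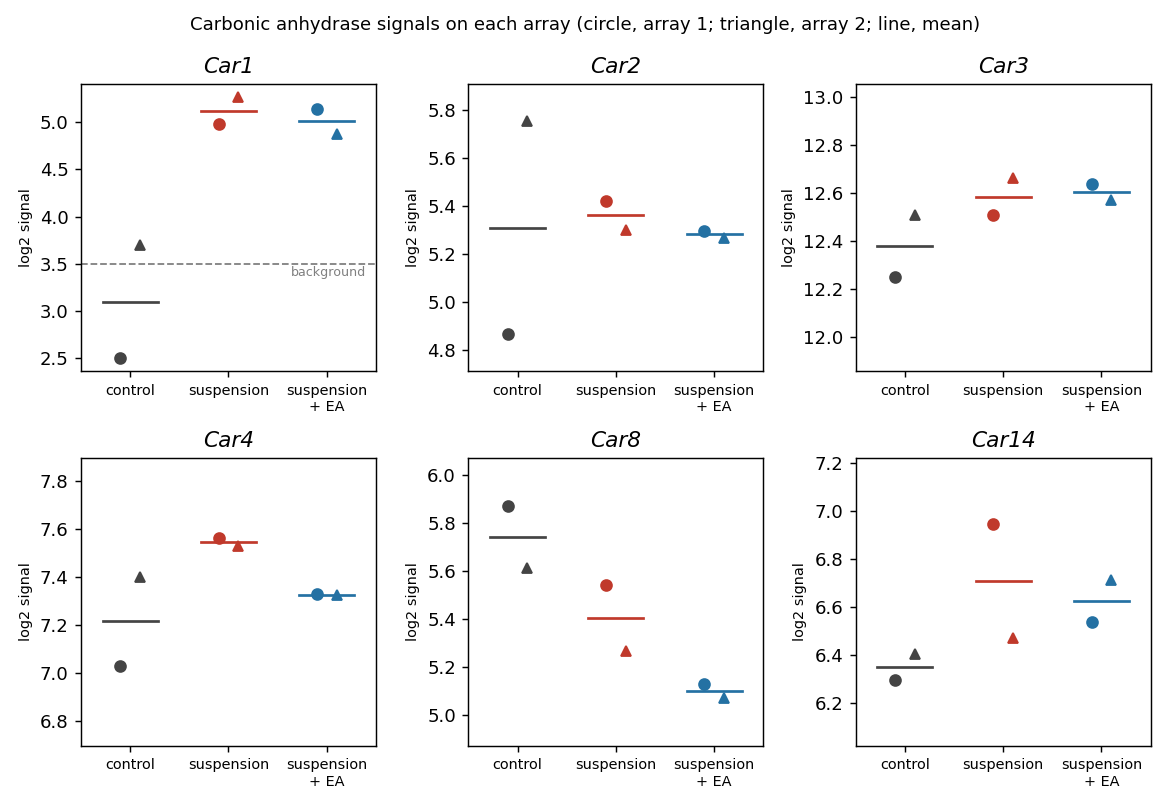
Log2 signal (vertical axis, a separate scale in each panel) of the 6 carbonic anhydrase genes in the 3 groups (EA, electroacupuncture); circles are array 1, triangles array 2, and lines the mean of the 2. The dashed line in the Car1 panel is the background of 3.50; Car1 lies near or below it on the control arrays and at 4.87 or more on all 4 arrays of suspended muscle.

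Between suspended and control soleus, Car1 showed the largest difference of the 6 genes, 2.02 log2, and the other 5 ran from -0.34 to 0.36. In limma fitted to all genes, 1 of the 6 passed an adjusted p of 0.05, against 1.05% of the 19938 genes tested, and it was Car1, which had been singled out in this comparison beforehand, so nothing is read from the count. The arrays of the groups did not overlap for 4 of the 6 genes, against 39.8% of all genes. The differences of the 6 had a median of 0.27, with 5 above 0, beside a median of 0.0060 over all genes. With electroacupuncture added, none of the 6 differed from suspension alone past the threshold, where 0% of all genes did (limma, 612 genes at an unadjusted p under 0.05). The arrays did not overlap for 3 of the 6, against 32.6% of all genes, and the median difference of the 6 was -0.10, beside -0.0062 over all genes. Against control, the electroacupuncture group had 1 of the 6 past the threshold, again Car1, beside 1.03% of all genes. Nothing is read from this count either, since the control arrays are those of the first comparison. The arrays did not overlap for 4 of the 6, beside 41.8% of all genes. The median difference of the 6 was 0.17, beside 0.0059 over all genes. The comparisons share arrays, with control in the first and the last and suspension in the first and the second, and are not independent of each other.

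**Figure D2:**
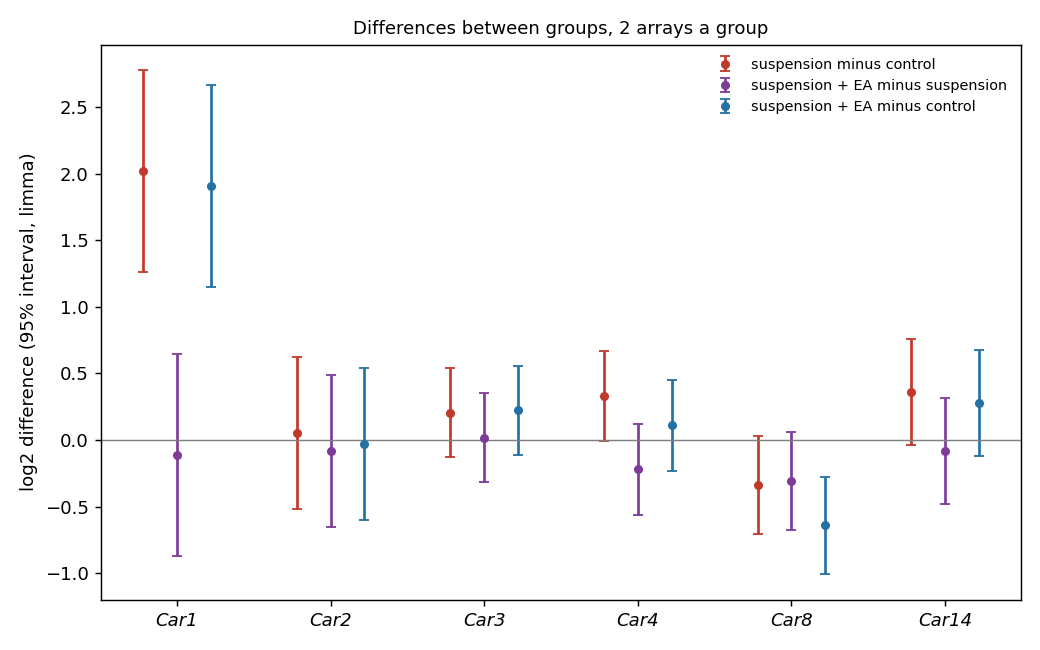
Log2 difference (vertical axis) of each carbonic anhydrase gene in the 3 comparisons, with its 95% interval from limma. Both intervals of Car1 against control lie above 1. They use the control arrays on which the Car1 difference was already known, so they describe it and are no fresh test. The interval of Car8 in suspension with electroacupuncture minus control lies below 0, from -1.01 to -0.27, although Car8 did not pass the threshold over all genes.

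Car1 encodes a cytosolic carbonic anhydrase best known from red blood cells and from the lining of the colon. Its signal was 2.50 and 3.70 on the control arrays, 4.98 and 5.27 on the suspension arrays, and 5.14 and 4.87 on the electroacupuncture arrays. All 4 arrays of suspended muscle lay above both control arrays, and the suspended groups overlapped with each other. The lowest suspension array was 1.27 log2 above the higher control array. Suspension exceeded control by 2.02 ± 0.33 log2 (SE from limma, 2 arrays a group), or 4.06-fold. This difference was known when the gene was chosen, so it stands as a description without a p-value.

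The fold rests on a control level at background. The control mean, 3.10 ± 0.85 (SD, n = 2), lay below 3.50, with 1 of the 2 control arrays above it. The gap between the control arrays in Car1 was larger than that of 99.5% of all genes. The suspension mean, 5.12 ± 0.21 (SD, n = 2), was 1.63 log2 above the background level itself, or 3.09-fold. The difference was 1.42 without control array 1 and 2.62 without control array 2. Leaving out suspension array 1 gave 2.17, leaving out suspension array 2 gave 1.88, and leaving out an electroacupuncture array, 1 or 2, gave 2.02. In those 4 fits it no longer passed the threshold over all genes.

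The electroacupuncture group had a mean of 5.01 ± 0.19 (SD, n = 2). This mean does not enter the difference between suspension and control, but the arrays of the group enter the shared spread of the fit. The group exceeded control by 1.91 ± 0.33 log2 (3.75-fold, adjusted p = 0.0391 in limma). The control arrays are those of the comparison in which Car1 was first seen, so this p is no fresh test. The comparison is a further look at the treated arrays and not at the low control level. The call was lost without suspension array 1 or 2 and without electroacupuncture array 1 or 2. Without control array 1 the difference was 1.31 and without control array 2 it was 2.51. Each of these fits leaves 1 control array, so the spread between the control arrays drops out and no call is read from them. Between the treated and the untreated suspended group Car1 differed by -0.11 ± 0.33, with a 95% interval from -0.87 to 0.64 (adjusted p = 1.00 in limma).

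Red cells carry Car1 protein and its message arises in their precursors, so erythroid markers were read on the same arrays. Of the 15 listed, 7 were measured as single genes. The globin genes were not among them. The mean log2 signal of the 7 was 3.74 and 3.84 on the control arrays, 3.84 and 3.75 on the suspension arrays and 3.75 and 3.62 on the electroacupuncture arrays. None of the 7 passed the threshold in any of the 3 comparisons, and their median difference was 0.030 between suspension and control. Epb42 and Rhag, genes of the red cell membrane, had means below background. Alas2, the first enzyme of haem synthesis in red cell precursors, read 4.63 and 5.97 on the control arrays, 5.86 and 4.91 on the suspension arrays and 5.20 and 4.80 with electroacupuncture. Alas2 was thus lower on control array 1 than on control array 2, as Car1 was. The list as a whole was divided there, with 4 of the 7 markers, Alas2 included, lower on control array 1. Of all genes 48.1% were higher on control array 2. The suspension minus control difference of Alas2 was 0.09 ± 0.42, with a 95% interval from -0.87 to 1.05 (adjusted p = 0.963 in limma). The part of red cells and their precursors in the Car1 values was not tested.

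**Figure D3:**
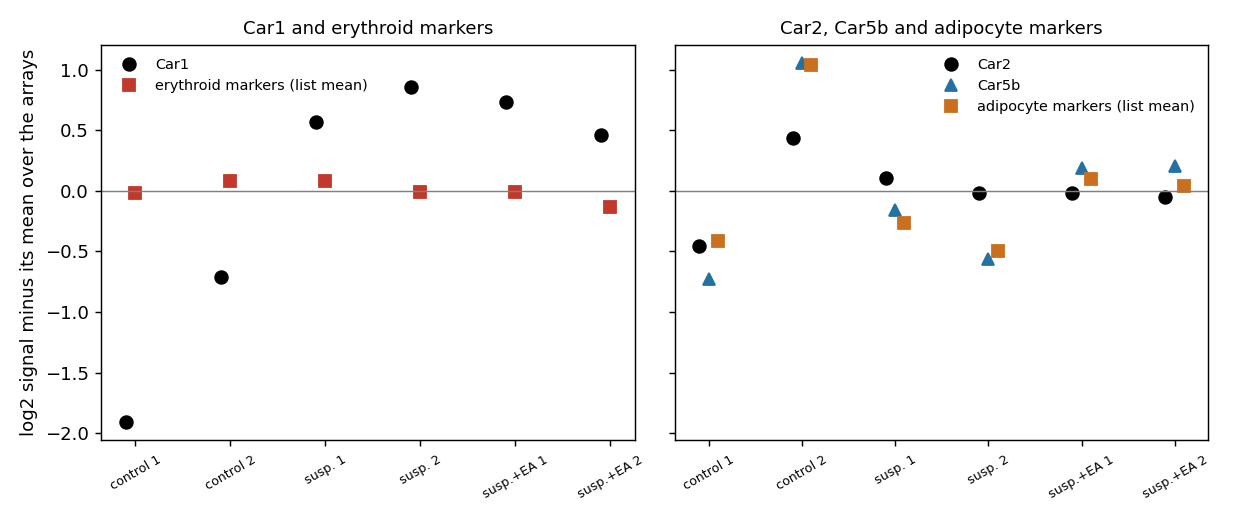
Log2 signal minus its own mean over the 6 arrays (vertical axis) for Car1 beside the mean of 7 erythroid markers (left) and for Car2 and Car5b beside the mean of 9 adipocyte markers (right), on each array. The erythroid mean includes Epb42 and Rhag, which were below background, and no globin gene. It stays between -0.14 and 0.08, and Car1 runs from -1.91 to 0.86. Car5b and the adipocyte mean are both high on control array 2, at 1.06 and 1.04.

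The genes whose profile over the 6 arrays lay nearest to that of Car1, by the root mean square difference of values centred on each gene's mean, were Slc43a1, an amino acid transporter gene (0.39 log2), Sv2b, a synaptic vesicle protein gene (0.40), and Inmt, a methyltransferase gene (0.41). They were taken from 13443 genes whose highest group mean was above background, after predicted genes with provisional names were passed over. Their Pearson correlations with Car1 were 0.92, 0.92 and 0.91 over the 6 arrays, which fall into control and suspended arrays, so these values mainly restate that split. Slc43a1 read 4.99 and 5.65 on the control arrays, 7.47 and 6.86 on the suspension arrays and 6.62 and 6.96 with electroacupuncture. The control mean was above background for all 3 of these genes, at 5.32, 4.85 and 5.97. None of the other 5 carbonic anhydrase genes had group means as much as 1 log2 apart, and no nearest genes were sought for them.

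**Figure D4:**
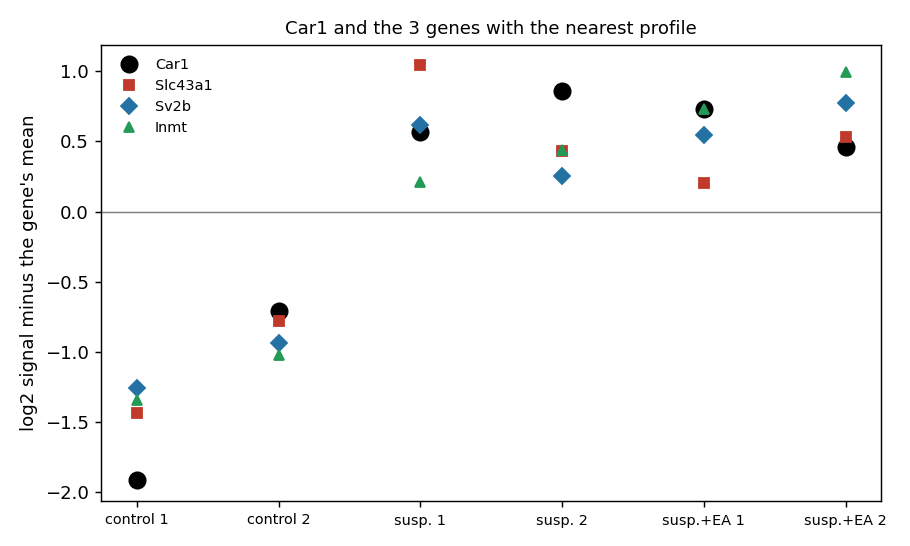
Log2 signal minus each gene's mean over the 6 arrays (vertical axis) for Car1 and the 3 genes with the nearest profile, on each array. All 4 genes are below their mean on both control arrays and above it on all 4 arrays of suspended muscle, and Car1 is the lowest of them on control array 1.

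Car2 and Car3 lie next to Car1 in the genome: in RefSeq (GRCm38.p6) the protein-coding genes Car13, Car1, Car3 and Car2 follow one another without another protein-coding gene between them. Between suspension and control, the difference was 2.02 for Car1, 0.21 for Car3 and 0.052 for Car2. Car13, a cytosolic enzyme that is not one of the 6, had a signal near background (mean 3.68) and differed by 0.017 ± 0.16 there.

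Car2 is the fast, widely expressed cytosolic enzyme. Its signal was 4.87 and 5.75 on the control arrays, 5.42 and 5.30 on the suspension arrays and 5.30 and 5.26 on the electroacupuncture arrays. The control arrays enclosed all 4 others, and their gap of 0.89 log2 was larger than that of 98.1% of all genes. The group means, 5.36 in suspension, 5.31 in control and 5.28 with electroacupuncture, did not differ beyond their spread at either step. Suspension minus control was 0.052 ± 0.25, with a 95% interval from -0.52 to 0.62 (adjusted p = 0.964 in limma), and turned to -0.39 without control array 1 and to -0.01 without suspension array 1. With electroacupuncture the difference from suspension was -0.08 (95% interval -0.65 to 0.49) and that from control -0.03, or 0.42 without control array 2.

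Adipocyte markers also parted the control arrays. The mean log2 signal of 9 of them was 5.63 on control array 1 and 7.08 on control array 2, with all 9 lower on array 1, and lay between 5.54 and 6.14 on the 4 others. Adipoq, the adipocyte hormone gene, read 5.10 and 8.09 on the control arrays. Car2 was also lower on control array 1 than on control array 2. Between the treated and the untreated suspended group the adipocyte markers had a median difference of 0.43, and Car2 differed by -0.08. Other lists parted the control arrays by less. Of the endothelial markers 10 of 11 were lower on control array 1, of the slow-fibre markers 9 of 10 and of the macrophage markers 7 of 9. The fast-fibre list had 7 of 11 lower there, and the fibroblast and tendon list 4 of 9. Of all genes 48.1% were higher on control array 2 than on control array 1. Adipocytes also make much Car3. The part of adipose tissue in these values was not tested. In whole muscle, fewer cells of a type and less RNA per cell cannot be told apart.

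Car3 encodes the cytosolic enzyme that fills slow and oxidative fibres, and its mean signal was above that of 99.9% of all genes. It read 12.25 and 12.51 on the control arrays, 12.51 and 12.67 on the suspension arrays and 12.64 and 12.57 with electroacupuncture. The suspension arrays overlapped with both other groups, and the electroacupuncture arrays lay above both control arrays by only 0.06 log2. The order of the means was electroacupuncture 12.60, suspension 12.59 and control 12.38. Suspension minus control was 0.21 ± 0.15, with a 95% interval from -0.13 to 0.54 (adjusted p = 0.636 in limma). This interval covers only the spread between arrays, and the difference was 0.31 with quantile normalization again. Without control array 1 the difference was 0.075 and without control array 2 it was 0.34. The treated minus the untreated suspended group was 0.019 ± 0.15 (95% interval -0.32 to 0.35), and this turned to -0.060 without suspension array 1. On the same arrays 9 of 10 slow-fibre markers had lower means in suspension than in control, beside 9742 of all 19938 genes. The markers had a median difference of -0.50, in a range from -1.35 to 0.10. Of the 10 markers 1 passed the threshold, beside 1.05% of all genes.

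Both membrane enzymes of the group, Car4 and Car14, had their highest mean in suspension and their lowest in control. Car4 is held on the outer face of the membrane by a lipid anchor and is found on muscle capillaries and on the fibre surface. It read 7.03 and 7.40 on the control arrays, 7.56 and 7.53 on the suspension arrays and 7.33 and 7.32 with electroacupuncture. The suspension arrays stood above the 4 others, while the electroacupuncture arrays fell between the control arrays. Suspension minus control was 0.33 ± 0.15 (95% interval -0.01 to 0.67, adjusted p = 0.409 in limma), 0.14 without control array 1 and 0.52 without control array 2. The treated minus the untreated suspended group was -0.22 ± 0.15 (95% interval -0.56 to 0.12, adjusted p = 1.00 in limma), and was between -0.24 and -0.20 with each array left out in turn. Against control the treated group differed by 0.11 ± 0.15 (95% interval -0.23 to 0.45), and by -0.076 without control array 1.

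Endothelial markers went both ways between suspension and control, with 6 of 11 differences above 0 and 5 below, from -0.59 to 0.40. The mean log2 signal of 11 of them was 7.18 and 7.40 on the control arrays, 7.27 and 7.16 on the suspension arrays and 7.01 and 6.94 with electroacupuncture. Their median difference was 0.0056 between suspension and control, and -0.26 between the treated and the untreated suspended group. Between the suspended groups 9 of 11 were lower, beside 10281 of all 19938 genes, and none passed the threshold. Car4 and the endothelial list were thus both lower with electroacupuncture than with suspension alone, and the part of endothelial content in the Car4 values was not tested.

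Car14 spans the membrane with its catalytic domain outside, and occurs in the surface and internal membranes of muscle fibres. It read 6.30 and 6.40 on the control arrays, 6.95 and 6.47 on the suspension arrays and 6.54 and 6.71 with electroacupuncture. Suspension array 1 was the highest of the 6, and suspension array 2 lay 0.07 log2 above the higher control array. Suspension minus control was 0.36 ± 0.18 (95% interval -0.04 to 0.76, adjusted p = 0.447 in limma), and 0.12 without suspension array 1 against 0.60 without suspension array 2. The treated minus the untreated suspended group was -0.09 ± 0.18 (95% interval -0.48 to 0.31) and turned to 0.15 without suspension array 1. Against control the treated group differed by 0.28 ± 0.18 (adjusted p = 0.597 in limma), with both of its arrays above both control arrays.

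Car8 was the gene of the group whose mean was lowest with electroacupuncture and highest in control. Its product, a carbonic anhydrase-related protein, has lost a histidine that holds the catalytic zinc, has no carbonic anhydrase activity, and binds the inositol trisphosphate receptor, a calcium release channel. Car8 read 5.87 and 5.61 on the control arrays, 5.54 and 5.27 on the suspension arrays and 5.13 and 5.07 with electroacupuncture. No 2 of the groups overlapped, with gaps of 0.07 log2 between control and suspension and 0.14 between suspension and electroacupuncture. Neither neighbouring step passed the threshold: suspension minus control was -0.34 ± 0.16 (95% interval -0.70 to 0.03, adjusted p = 0.443 in limma), and the treated minus the untreated suspended group was -0.31 ± 0.16 (95% interval -0.67 to 0.06, adjusted p = 1.00 in limma).

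From control to suspension with electroacupuncture Car8 differed by -0.64 ± 0.16, or 1.56-fold lower (unadjusted p = 0.0034, adjusted p = 0.125 in limma), with both treated arrays below both control arrays. The difference ran from -0.77 to -0.51 with each array left out in turn, and the adjusted p from 0.0829 to 0.524 over all alternatives, so the gene passed the threshold in none of them. Car8 was higher on control array 1 than on control array 2, the only one of the 6 genes with that order.

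The other 10 carbonic anhydrase genes of the mouse on the array showed no call in any comparison. Of them 7 had a mean above background, and Car6, which is secreted in saliva, Car10, a related protein without activity, and Car12, a membrane enzyme, were below it on all 6 arrays. Between suspension and control 7 of the 10 differences were above 0, with a median of 0.04 and a range from -0.53 to 0.34. The smallest unadjusted p was that of Car11, another related protein without activity. It read 5.26 and 5.29 on the control arrays, 5.65 and 5.58 on the suspension arrays and 5.69 and 5.66 with electroacupuncture. All 4 arrays of suspended muscle lay above both control arrays for Car11, by 0.34 ± 0.13 in suspension (adjusted p = 0.334 in limma) and 0.40 ± 0.13 with electroacupuncture (adjusted p = 0.247). Car15, anchored to the membrane by a lipid, differed the other way, by -0.30 (adjusted p = 0.51 in limma) and -0.34 (0.457).

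Car5b, a mitochondrial enzyme, varied most between duplicates among these 10. It read 4.60 and 6.39 on the control arrays, 5.17 and 4.76 on the suspension arrays and 5.51 and 5.53 with electroacupuncture. Control array 2 was the highest and control array 1 the lowest, so that the control arrays enclosed all the others, as they did for Car2. Suspension minus control was -0.53 ± 0.45 and the treated minus the untreated suspended group 0.56 ± 0.45 (adjusted p = 0.715 and 1.00 in limma). The adipocyte markers were high on the same control array and lower on the same suspension arrays, and their part in the Car5b values was not tested. Car9, a membrane enzyme induced by low oxygen, differed by 0.27 between suspension and control and by -0.28 between the treated and the untreated suspended group (adjusted p = 0.615 and 1.00 in limma), at a mean of 3.62 that was near background.

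Carbon dioxide and acid leave the fibre together with bicarbonate and lactate, and the carriers of these were listed as well. Of 12 genes of bicarbonate transporters 11 were measured and 7 were above background, and none passed the threshold in any comparison. Their median differences were 0.019 between suspension and control, 0.034 between the suspended groups and 0.013 between electroacupuncture and control. The anion exchanger gene Slc26a6 was the nearest to the threshold in the first comparison. It read 4.34 and 4.54 on the control arrays and 4.97 and 4.88 on the suspension arrays, a difference of 0.48 ± 0.15 (adjusted p = 0.214 in limma), and 4.69 and 4.80 with electroacupuncture. Slc4a3, an anion exchanger of heart and muscle, differed by -0.15 between suspension and control (adjusted p = 0.779 in limma), and by 0.060 when all clusters of the gene were averaged. Slc4a1, the chloride and bicarbonate exchanger of the red cell, which was also on the erythroid list, differed by -0.33 ± 0.16 between the suspended groups (adjusted p = 1.00 in limma). Slc4a8, a sodium-driven bicarbonate exchanger, differed by 0.29 between electroacupuncture and control (adjusted p = 0.587).

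Of 10 genes of lactate and proton transport 9 were measured, 7 of them above background. None passed the threshold between suspension and control, where 4 of the 9 differences were below 0, or between the suspended groups. Between electroacupuncture and control 1 of the 9 was called lower, beside 117 of all 19938 genes, with 1.03% called in either direction. Of the 9 differences 6 were below 0, with a median of -0.032. The gene that fell was Slc16a1, which encodes the lactate and proton carrier of oxidative fibres. It read 8.38 and 8.28 on the control arrays, 7.68 and 7.79 on the suspension arrays and 7.50 and 7.55 with electroacupuncture. The 3 groups did not overlap, and both suspended groups were below control. Between electroacupuncture and control it fell by 0.81 ± 0.12 log2 (adjusted p = 0.0255 in limma, range 0.0205 to 0.265 over the alternatives). Between suspension and control the difference was -0.60 ± 0.12 (adjusted p = 0.0733 in limma), and it passed with an adjusted p of 0.048 when only genes above the median signal were tested. The call against control was lost without control array 1 (adjusted p = 0.0515 in limma), suspension array 1 (0.0502) or 2 (0.0507) and electroacupuncture array 1 (0.265) or 2 (0.21), with differences from -0.83 to -0.76.

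Its glycolytic counterpart Slc16a3 and their partner Bsg, a membrane chaperone, differed by 0.23 ± 0.29 and 0.18 ± 0.21 between suspension and control (adjusted p = 0.818 and 0.803 in limma). Hvcn1, a proton channel of immune cells, read 2.98 and 3.65 on the control arrays, 3.24 and 3.41 on the suspension arrays and 4.02 and 3.83 with electroacupuncture. Its control and suspension means, 3.32 and 3.33, were below background, so no size is given to its differences from the electroacupuncture group, which did not pass the threshold (adjusted p = 0.306 against control and 1.00 against suspension in limma). The 9 macrophage markers all had higher means with electroacupuncture than with suspension alone, beside 9656 of all 19938 genes. Their median difference was 0.42, with none past the threshold. The list mean was 6.19 and 5.47 on the suspension arrays and 6.39 and 6.10 with electroacupuncture, so the groups overlapped and suspension array 2 was the lowest. The part of macrophages in the Hvcn1 values was not tested. Emb, a partner of lactate carriers, differed by 0.39 ± 0.30 between suspension and control and by -0.12 without suspension array 1.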

How the data were processed

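RNA of mouse soleus was measured on Affymetrix 1.0 ST arrays, 2 a group. Per the submitters' processing notes, the authors computed RMA signals in Affymetrix Expression Console. The authors deposited 1 log2 value per array for each of 35556 transcript clusters. Versions and genome build are not given in the sources used here, so no coordinates are printed. RMA summarization equalizes the distribution of signals between arrays and compresses differences near background.

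Clusters were named through the platform annotation: 21789 had 1 symbol, and 1621 with several and 12146 with none were not used. An Entrez ID match to RefSeq was found for 21698 and changed 0 symbols. The cluster of highest mean was kept per symbol, giving 19938 genes, with no filter on signal. All genes on the 6 arrays were fitted together in limma 3.58.1 (R 4.3.3), with variances following the mean (3 residual and 5.88 prior degrees of freedom) and Benjamini-Hochberg adjustment over all genes. The median SE of a difference was 0.17 log2. The number of arrays limits the precision. The procedure was tested on simulated data.

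The 6 genes and the 11 lists (114 distinct genes, 100 measured) were chosen with earlier results of these data known. Of the 3 carrier and enzyme lists, the genes named were those past the threshold and the 2 of smallest p above background in each comparison. Nearest profiles were sought for genes with group means at least 1 log2 apart. Alas2, Epb42, Rhag, Adipoq, Myh7, Car6, Car10, Car12, Car13, Slc16a3 and Bsg fell outside the rule and were named after their values were seen. Alternatives were other variance priors, scalings, filters and cluster choices, fits of 2 groups, a replicate block, array weights and each array left out.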

Additional observations from a re-analysis of the deposited data

How the results depend on the processing

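Of 285 values of the 6 carbonic anhydrase genes under the alternatives, 262 kept their direction and side of the threshold, 12 lost a call (all Car1) and 11 changed sign, none of these called. Of the 6 genes, 1 was called against control in either suspended group; 0 were called without a trend in the variance prior, with only the 2 groups compared fitted, and with only genes above the median signal, where Car1 was not among the genes tested, and 0 to 1 with 1 array left out. For electroacupuncture minus control, Car1 had adjusted p = 0.0616 without the trend and 0.068 with 2 groups fitted (limma); the cause was not tested. Between the suspended groups no alternative called any of the 6, and leave-outs gave 0 to 0. Replicate numbers did not pair the arrays (correlations of deviations -0.16, 0.02 and -0.02). With the replicate block Car1 had adjusted p = 0.0412 in limma for electroacupuncture minus control, and Slc16a1 lost its call (0.058), as it did without the trend (0.0616).

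Signs turned for Car3 between the suspended groups with quantile normalization again (-0.022) and for Slc4a3 with all clusters averaged (0.060). With 1 array left out, suspension minus control ran from -0.39 to 0.50 for Car2 and from -0.12 to 0.89 for Emb; electroacupuncture minus suspension from -0.26 to 0.032 for Car1, from -0.060 to 0.097 for Car3 and from -0.32 to 0.15 for Car14; and electroacupuncture minus control from -0.47 to 0.42 for Car2 and from -0.076 to 0.30 for Car4. Over all genes, 209 calls in suspension minus control became 80 without the trend, 68 with 2 groups, 102 with the block, 130 with array weights and 16 to 301 with leave-outs. The 206 of electroacupuncture minus control became 101, 129 and 127 without the trend, with 2 groups and with the block, 312 with quantile normalization again and 2 to 299 with leave-outs. The 0 between the suspended groups became 3 with 2 groups, 4 with array weights and 0 to 3 with leave-outs. With vomeronasal receptor genes as background (2.75) all 6 genes were again above it, 6 also in control, where 5 were above 3.50. Values near background limit Car1 in control above all.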
